A study of Mus musculus with 12 samples.

Results

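The ubiquitin-conjugating (E2) enzymes were followed across 4 groups of bone marrow-derived macrophages (BMDM). Members were all genes of the expression table whose name starts with Ube2, with names carrying -ps left out, of which there were 0. This gave 37 of the 23440 genes in the table. Of these, 31 reached at least 1 TPM (a level per transcript length, scaled to the same sum in every library) in at least 3 of the 12 libraries and were tested, among 10822 genes tested in all.

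Macrophages were grown for 7 days in medium with 30% L929-conditioned medium from the marrow of C57BL/6J mice of 8 to 24 weeks. M-BKO cells carried floxed Bmal1 alleles and Lyz2-Cre, which deletes Bmal1 (Arntl) in myeloid cells, and WT cells carried the floxed alleles without a Cre. All cells had been primed with Ifn-γ (10 ng/mL). M1 activation was 8 h of LPS (10 ng/mL) on top of this priming, and the controls received no LPS, so no group was free of Ifn-γ. Each of the 4 groups had 3 libraries, which the study describes as culture replicates, so p-values may measure the spread between cultures and not between mice.

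An E1 enzyme activates ubiquitin and passes it to an E2, and the E2, usually together with an E3 ligase, places it on a substrate or on a growing chain. The E2 largely sets which modifier is carried and which lysine of ubiquitin a chain is built through. In macrophages, chains through lysine 63 made by Ube2n with a Ube2v partner, and linear chains made with Ube2l3, take part in signalling from Toll-like receptors, whereas Ube2l6 carries Isg15, an interferon-induced modifier. Ube2m and Ube2f carry Nedd8 in place of ubiquitin.

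The label checks and the make-up of the libraries bear on all values below. Arntl had 3.13, 3.39 and 3.03 TPM in M-BKO cells after M1, against 5.47, 4.81 and 5.80 TPM in WT cells after M1, and 2.31, 1.97 and 2.46 TPM in M-BKO controls, against 7.71, 7.25 and 7.54 TPM in WT controls. It was thus lower in M-BKO cells but not at 0. Lyz2, in which the Cre sits, was 47.0 to 78.8 TPM over the 6 M-BKO libraries and 14840 to 34645 TPM over the 6 WT libraries, and loss of Bmal1 and disruption of Lyz2 cannot be told apart in these groups. All 7 macrophage markers in the table were expressed, but their levels moved with the groups. In the M1 responses Csf1r was called lower (−2.23 in M-BKO cells and −2.38 in WT cells) and Mertk higher (1.65 and 1.55). Csf1r was called higher in M-BKO cells than in WT cells after M1 (0.38, limma adjusted p = 2.8e-05) and without LPS (0.23, adjusted p = 0.002). Of 31 markers of 8 other cell types, 25 stayed under 1 TPM in every library, with a summed level of 14.0 to 22.5 TPM and 3 at 0 in every library. Some markers of other cells moved with the groups as well. Summed neutrophil markers were 4.59 to 5.04 TPM in M-BKO cells after M1, against 2.73 to 3.42 TPM in WT cells after M1, with Camp called higher (0.57, limma adjusted p = 0.01). Summed dendritic cell markers were 1.97 to 2.15 TPM in M-BKO controls, against 2.89 to 3.46 TPM in WT controls, with Xcr1 called lower (−0.48, adjusted p = 0.01). In both M1 responses Cd79b of B cells and Ltf of neutrophils were called lower and Xcr1 higher. The part of these cells in the E2 values was not tested. WT control replicate 3 had the widest residuals from its group mean over all genes, with an SD of 0.175 on the log2 scale, against 0.0952 to 0.138 in the other libraries. In bulk RNA of this kind, fewer cells of a type and less RNA per cell cannot be told apart.

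The 6 members that were not tested were at or near 0. Ube2dnl1, Ube2dnl2, Ube2ql1 and Ube2u were listed at 0 in all 12 libraries. Ube2d2b, a copy of the Ube2d2 type, did not exceed 0.109 TPM. Ube2cbp, which encodes a protein that binds Ube2c and acts as an E3 although the name rule takes it in, did not exceed 0.252 TPM.

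Among the 31 expressed members the mean level over the 12 libraries ranged from 2.55 TPM for Ube2t to 391 TPM for Ube2l6, with a median of 54.2 TPM. There were 11 members above 100 TPM and 5 under 10 TPM. The order began with Ube2l6 (391 TPM), Ube2l3 (230 TPM), Ube2s (200.1 TPM), Ube2v1 (189 TPM) and Ube2d3 (176 TPM). These 5 genes made up 44.7% to 46.7% of the summed TPM of all 37 members in every library. Of neighbours in this order, Ube2l6 exceeded Ube2l3 in every library, whereas the ranges of Ube2s (141 to 280 TPM), Ube2v1 (162 to 208 TPM) and Ube2d3 (149 to 215 TPM) overlapped.

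**Figure D1:**
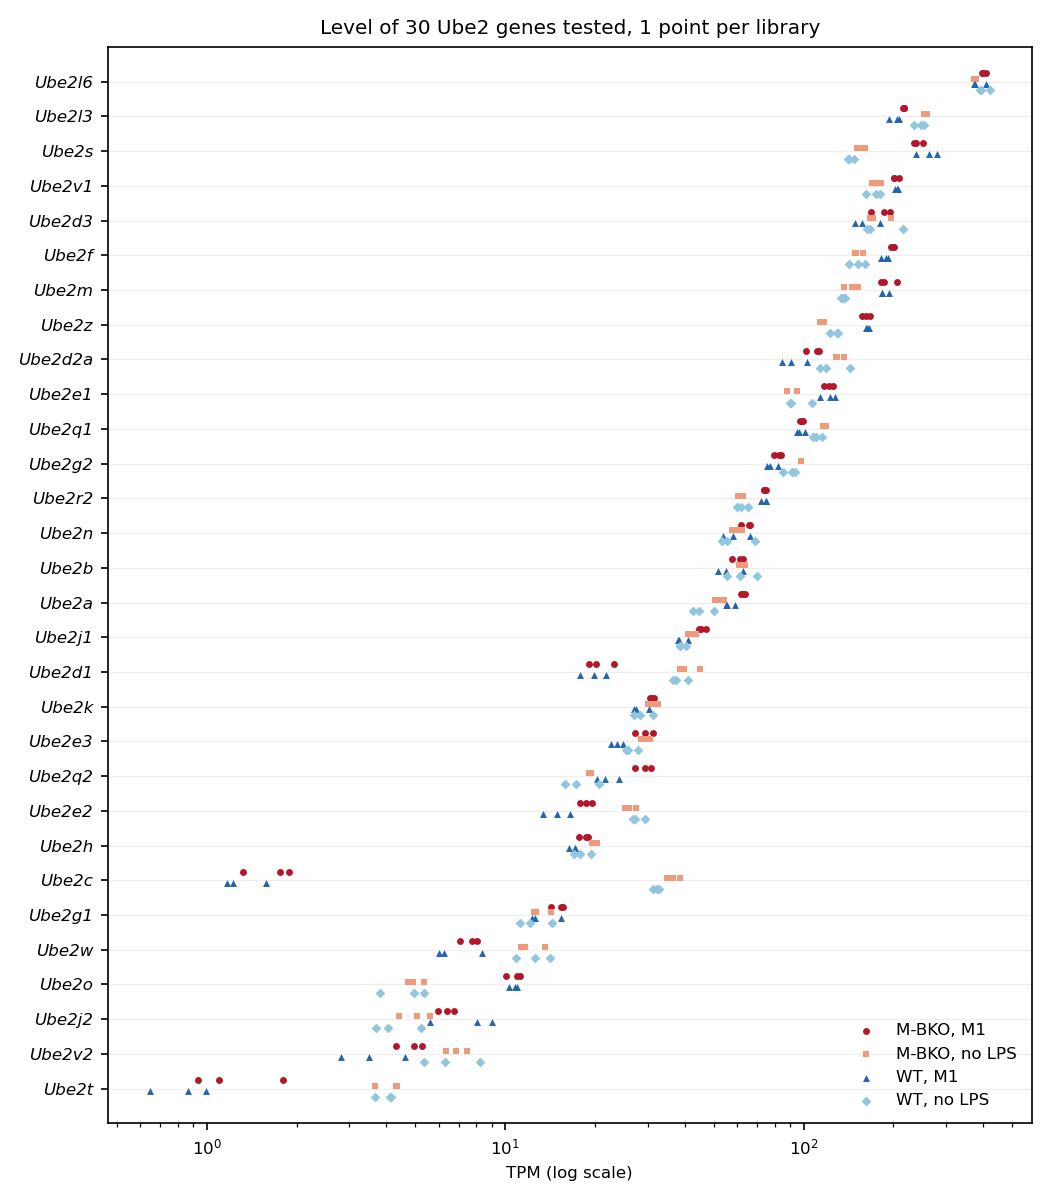
Level of 30 of the 31 Ube2 genes tested (rows, highest mean at the top) in TPM on a log axis, with 1 point per library and a colour and symbol per group. Ube2l6 leads with a mean of 391 TPM, and Ube2c and Ube2t are the rows in which the M1 libraries stand far to the left of the controls.

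In TPM, the summed level of the family differed little between groups. It was 2677 to 2792 TPM in M-BKO cells after M1, against 2524 to 2574 TPM in M-BKO controls, and 2572 to 2679 TPM in WT cells after M1, against 2436 to 2637 TPM in WT controls. The family therefore took 0.244% to 0.279% of all TPM in every library. M1 libraries were higher in M-BKO cells without overlap, and the WT groups overlapped. Scaling by the median ratio of genes, taken up below, divided M1 libraries by 0.820 to 0.867 and controls by 1.14 to 1.22. Under it the family sum would be higher in the M1 libraries of both genotypes, so the small difference holds for TPM only. The make-up of the TPM sum changed more. Ube2s was 8.82% ± 0.199 of the family total in M-BKO cells after M1 and 6.11% ± 0.222 in M-BKO controls. It was 9.93% ± 1.005 in WT cells after M1 and 5.74% ± 0.361 in WT controls (SD, n = 3 each). Ube2l3 was 7.93% ± 0.151 of it in M-BKO cells after M1 and 10.1% ± 0.123 in M-BKO controls, and 7.72% ± 0.208 in WT cells after M1 and 9.77% ± 0.259 in WT controls (SD, n = 3 each).

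The first question was which E2s responded to M1 activation. A gene was called in an M1 response at an adjusted p under 0.05 with a change over 1.5-fold on the log2(TPM + 1) scale, from limma fitted across all tested genes with Benjamini-Hochberg adjustment. In M-BKO cells, 2 members were called higher (Ube2o and Ube2s) and 4 lower (Ube2c, Ube2t, Ube2d1 and Ube2w), and 25 of 31 were not called. Over all genes tested, 12.3% were called higher and 42.3% lower there. In WT cells, 3 members were called higher (Ube2o, Ube2s and Ube2j2) and 6 lower (Ube2c, Ube2t, Ube2d1, Ube2e2, Ube2w and Ube2v2), against 12.9% of all genes called higher and 41.0% lower. The share of members called lower was thus 12.9% in M-BKO cells and 19.4% in WT cells.

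The median of the whole table moved as well. The median log2 fold change over all genes was −0.45 in M-BKO cells and −0.43 in WT cells, while the median over the 31 members was 0.04 in M-BKO cells and −0.06 in WT cells. TPM of a library have a fixed sum, so the values of its genes are relative to each other. When libraries were instead scaled by the median ratio of their genes, which brings the all-gene median to −0.01 in both genotypes, 13 members were called higher and 2 lower in M-BKO cells (22.2% and 22.3% of all genes), and 11 higher and 2 lower in WT cells (22.6% and 21.5% of all genes). The 2 lower members were then Ube2c and Ube2t in both genotypes. Without the limit on fold size, 11 members were higher and 11 lower in M-BKO cells (21.2% and 64.5% of all genes) and 11 higher and 12 lower in WT cells (22.4% and 63.6% of all genes). Ube2c, Ube2t, Ube2o and Ube2s were the members called in the same direction in both genotypes with and without the median-ratio scaling.

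**Figure D2:**
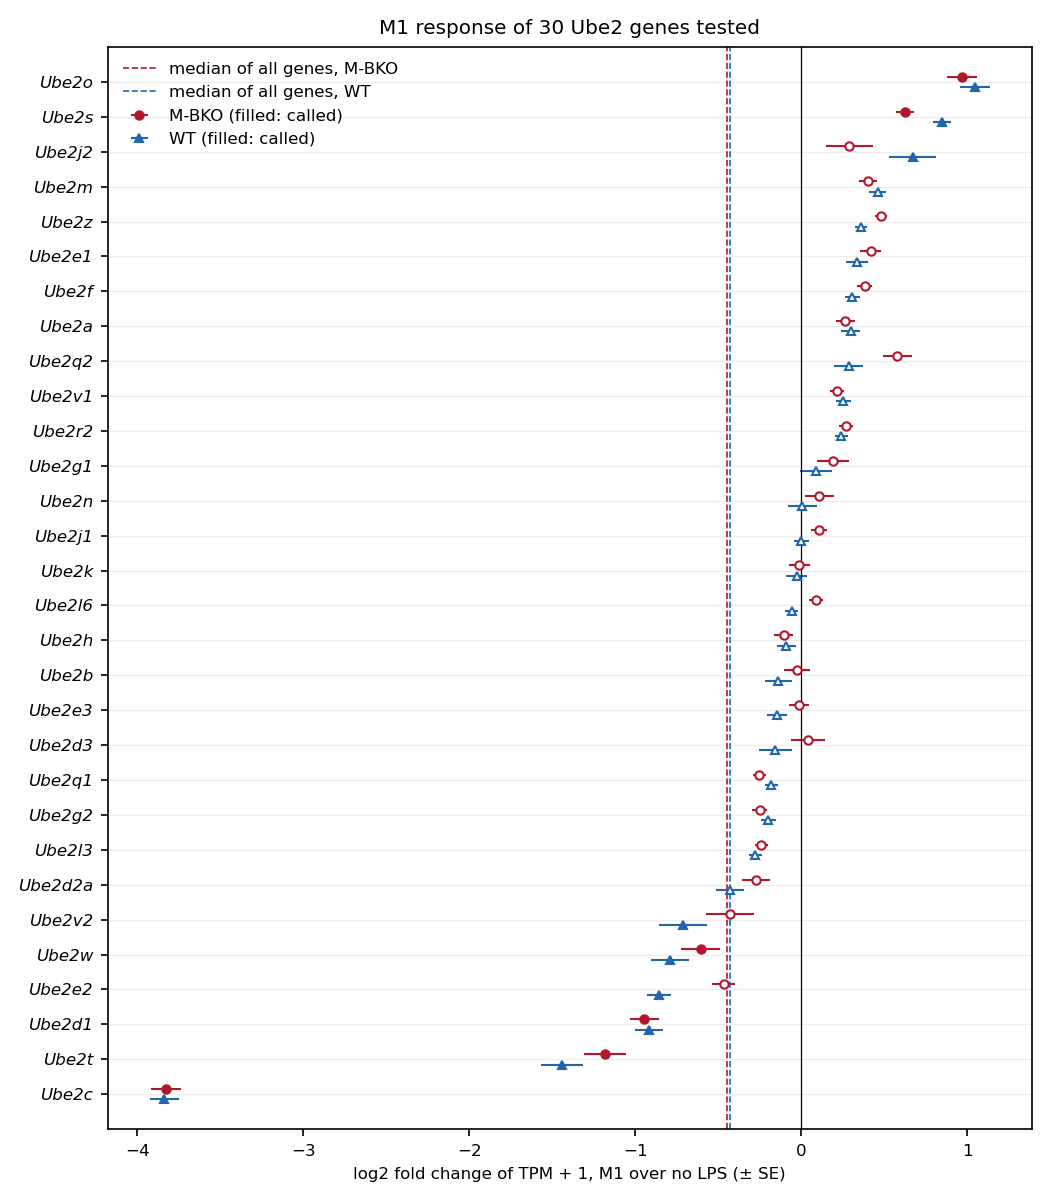
Log2 fold change of TPM + 1 (± SE) of M1 over no LPS for 30 of the 31 Ube2 genes, M-BKO (circles) above WT (triangles) in each row, filled where called; dashed lines mark the median over all genes, −0.45 in M-BKO cells and −0.43 in WT cells. Most members lie to the right of the dashed lines, and Ube2c stands far to the left at −3.83 in M-BKO cells and −3.84 in WT cells.

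The E2s of the cell cycle and of DNA repair held both the largest fall and, after Ube2o, the next largest rise in WT cells. Ube2c and Ube2s work in sequence with the anaphase-promoting complex, Ube2c placing the first ubiquitins on mitotic substrates and Ube2s extending them into chains through lysine 11. Ube2t is the E2 of the Fanconi anaemia pathway of DNA crosslink repair, and Ube2a and Ube2b are the mouse counterparts of yeast Rad6. The promoters of Ube2c, Ube2s and Ube2t are shown because the first and last fell and the middle one rose. They are RefSeq sequence of GRCm38.p6 (mm10), 250 bases before to 50 after the start of the gene, and capitals mark 2 motifs known from cell-cycle promoters: CCAAT, and the CHR element written as TTTGAA or TTCGAA, both searched on both strands.
Ube2c, chr2:164769679-164769978, plus strand: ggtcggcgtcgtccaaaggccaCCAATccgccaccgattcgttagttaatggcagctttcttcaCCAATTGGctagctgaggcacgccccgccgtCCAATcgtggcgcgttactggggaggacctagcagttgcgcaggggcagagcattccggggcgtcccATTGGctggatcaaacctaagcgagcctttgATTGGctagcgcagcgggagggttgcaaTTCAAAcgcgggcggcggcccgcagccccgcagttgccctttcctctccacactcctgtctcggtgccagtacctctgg
Ube2s, chr7:4812291-4812590, minus strand: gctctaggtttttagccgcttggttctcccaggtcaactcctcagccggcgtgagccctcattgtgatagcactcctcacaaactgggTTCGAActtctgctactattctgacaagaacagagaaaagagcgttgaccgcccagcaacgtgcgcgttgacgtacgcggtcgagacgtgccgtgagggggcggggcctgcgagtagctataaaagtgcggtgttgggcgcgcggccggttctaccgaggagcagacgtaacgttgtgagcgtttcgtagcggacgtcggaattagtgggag
Ube2t, chr1:134962315-134962614, plus strand: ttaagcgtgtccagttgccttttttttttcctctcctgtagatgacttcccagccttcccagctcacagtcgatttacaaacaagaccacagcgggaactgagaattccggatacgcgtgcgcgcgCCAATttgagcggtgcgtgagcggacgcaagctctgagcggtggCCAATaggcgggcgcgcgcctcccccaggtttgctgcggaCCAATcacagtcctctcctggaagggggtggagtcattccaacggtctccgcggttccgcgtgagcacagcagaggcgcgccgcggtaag

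The Ube2c window held 6 matches to CCAAT, of which a pair overlap, and 1 to the CHR element, the Ube2t window held 3 to CCAAT and 0 to the CHR element, and the Ube2s window held 0 to CCAAT and 1 to the CHR element. Of 32851 RefSeq promoter windows of the same length, 37.4% held CCAAT and 19.2% a CHR element, so such matches are common and are given as a description only. The table had windows for 30 of the 37 members, 41 windows in all, of which 9 held CCAAT and 5 a CHR element.

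Ube2c (chr2:164769929-164772902, plus strand, mm10 as all coordinates here) had 1.76, 1.32 and 1.89 TPM in M-BKO cells after M1, against 38.4, 34.9 and 36.4 TPM in M-BKO controls. The WT values were 1.23, 1.58 and 1.17 TPM after M1, against 31.2, 32.4 and 32.9 TPM in controls. Every M1 library was far under every control library. The log2 fold change was −3.83 ± 0.09 in M-BKO cells (SE, limma adjusted p = 4.4e-14) and −3.84 ± 0.09 in WT cells (adjusted p = 4.3e-14).

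Ube2t (chr1:134962577-134974137, plus strand) was the least abundant tested member, with 1.10, 1.80 and 0.932 TPM in M-BKO cells after M1, against 4.33, 3.67 and 4.32 TPM in M-BKO controls. WT libraries had 0.867, 0.998 and 0.644 TPM after M1, against 3.66, 4.16 and 4.10 TPM in controls. The groups did not overlap in either genotype. The log2 fold change was −1.18 ± 0.13 in M-BKO cells (SE, limma adjusted p = 5.7e-07) and −1.44 ± 0.13 in WT cells (adjusted p = 7e-08), on a scale that understates the change of a gene this low.

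Ube2s (chr7:4808014-4812340, minus strand) went the other way. It had 235, 251 and 238 TPM in M-BKO cells after M1, against 151, 156 and 160.3 TPM in M-BKO controls. In WT cells it had 238, 280 and 262 TPM after M1, against 142, 148 and 141 TPM in controls. All M1 libraries lay above all controls. The log2 fold change was 0.63 ± 0.05 in M-BKO cells (SE, limma adjusted p = 5e-08) and 0.85 ± 0.05 in WT cells (adjusted p = 1.8e-09). The difference between the genotypes did not pass (interaction −0.22 ± 0.08, adjusted p = 0.18).

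The ratio of Ube2c to Ube2s inside a library is a value that no scaling between libraries can change. Ube2c over Ube2s was 0.00527 to 0.00796 in M-BKO cells after M1, against 0.223 to 0.254 in M-BKO controls, and 0.00447 to 0.00563 in WT cells after M1, against 0.219 to 0.233 in WT controls. Markers of dividing cells moved with Ube2c and Ube2t. All 8 of a list (Mki67, Top2a, Ccna2, Ccnb1, Cdk1, Plk1, Bub1 and Birc5) were called lower in both M1 responses, and 7 under the median-ratio scaling. Of all genes, 42.3% were called lower in M-BKO cells and 41.0% in WT cells, and 22.3% and 21.5% under the median-ratio scaling. The summed level of the list was 20.01 to 22.5 TPM in M-BKO cells after M1 and 128 to 134 TPM in M-BKO controls, and 19.6 to 21.6 TPM in WT cells after M1 and 113 to 127 TPM in WT controls. Mki67 made up most of the sum after M1, with means of 14.2 TPM in M-BKO cells and 12.4 TPM in WT cells. Its means in controls were 22.7 and 19.9 TPM. The part of dividing cells in the falls of Ube2c and Ube2t was not tested, and Ube2s did not follow the markers.

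**Figure D3:**
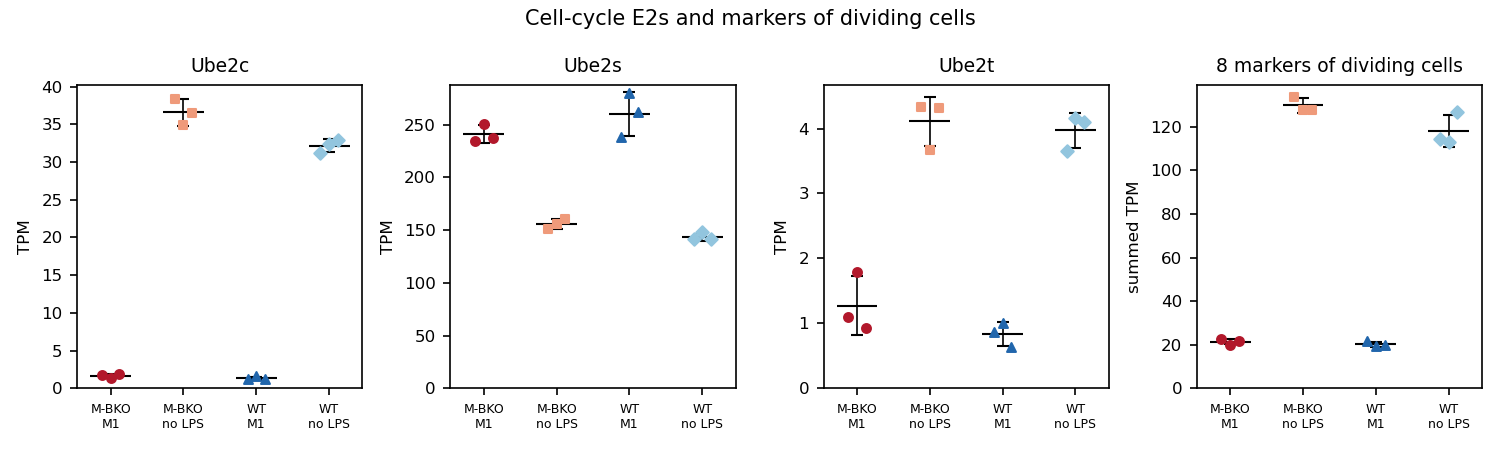
TPM of Ube2c, Ube2s and Ube2t and the summed TPM of 8 markers of dividing cells in each library (points), with the group mean (line) and SD (bars, n = 3), groups from left to right M-BKO after M1, M-BKO without LPS, WT after M1 and WT without LPS. Ube2c, Ube2t and the markers are low in the M1 libraries, and Ube2s is higher there than in every control.

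Ube2a and Ube2b were not called in TPM. Ube2a averaged 62.6 ± 1.03 TPM in M-BKO cells after M1 and 51.9 ± 1.81 TPM in M-BKO controls, and 56.4 ± 2.08 TPM in WT cells after M1 and 45.8 ± 3.84 TPM in WT controls (SD, n = 3 each). This was higher without overlap in both genotypes but under the fold limit. Ube2a was called higher in both under the median-ratio scaling (0.74 in M-BKO cells and 0.75 in WT cells). Ube2b lay between 51.5 and 70.0 TPM in all libraries, and its M1 and control libraries overlapped.

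Of the E2s with broad partners, the Ube2d, Ube2e and Ube2w types, 7 were tested, and 0 were called higher and 2 lower in M-BKO cells (42.3% of all genes lower) and 0 higher and 3 lower in WT cells (41.0% of all genes lower). Under the median-ratio scaling 1 was called higher and 0 lower in each genotype, against 22.2% and 22.3% of all genes in M-BKO cells and 22.6% and 21.5% in WT cells. These enzymes serve many RING-type E3s, and Ube2w places ubiquitin on the amino end of proteins. Their paralogs did not move together. Ube2d1 (chr10:71254980-71285262, minus strand) had 23.2, 19.1 and 20.1 TPM in M-BKO cells after M1, against 44.9, 38.5 and 39.6 TPM in M-BKO controls, and 21.8, 17.9 and 19.8 TPM in WT cells after M1, against 37.5, 36.4 and 40.9 TPM in WT controls. Its log2 fold change was −0.95 ± 0.09 in M-BKO cells (SE, limma adjusted p = 1.1e-07) and −0.92 ± 0.09 in WT cells (adjusted p = 1.5e-07), and it became −0.47 in both genotypes under the median-ratio scaling, which is inside the fold limit.

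Ube2d3, the most abundant of the Ube2d genes, had 186, 194 and 168 TPM in M-BKO cells after M1, against 196, 171 and 167 TPM in M-BKO controls. The WT values were 180.1, 149 and 157 TPM after M1, against 167, 164 and 215 TPM in controls. The groups overlapped in both genotypes (log2 fold change 0.04 ± 0.10 in M-BKO cells, limma adjusted p = 0.72, and −0.16 ± 0.10 in WT cells, adjusted p = 0.16). Ube2d2a averaged 109 ± 5.91 TPM in M-BKO cells after M1 and 131 ± 4.87 TPM in M-BKO controls, and 92.5 ± 9.18 TPM in WT cells after M1 and 125 ± 15.97 TPM in WT controls (SD, n = 3 each), under the fold limit, and the sign of its log2 fold change turned under the median-ratio scaling (−0.27 became 0.21 in M-BKO cells, and −0.43 became 0.03 in WT cells). Inside a library, Ube2d1 over Ube2d3 was 0.0986 to 0.125 in M-BKO cells after M1, against 0.226 to 0.237 in M-BKO controls, and 0.120 to 0.126 in WT cells after M1, against 0.191 to 0.225 in WT controls.

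The Ube2e genes split in a like manner. Ube2e1 had 117, 121 and 125 TPM in M-BKO cells after M1, against 95.2, 88.1 and 88.2 TPM in M-BKO controls. WT libraries had 127, 113 and 122 TPM after M1, against 90.9, 89.7 and 107 TPM in controls. The M1 libraries were higher without overlap (log2 fold change 0.42 ± 0.06 in M-BKO cells, limma adjusted p = 3.1e-05, and 0.34 ± 0.06 in WT cells, adjusted p = 0.00023), but under the fold limit. Ube2e1 was called higher in both genotypes under the median-ratio scaling (0.90 in M-BKO cells and 0.80 in WT cells).

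Ube2e2 (chr14:18573577-18893627, minus strand) had 18.6, 17.8 and 19.6 TPM in M-BKO cells after M1, against 26.0, 27.4 and 25.1 TPM in M-BKO controls. In WT cells it had 14.9, 16.5 and 13.4 TPM after M1, against 29.4, 27.2 and 26.8 TPM in controls. The M1 libraries were lower without overlap in both genotypes, and the fall passed the fold limit in WT cells alone (−0.86 ± 0.07, limma adjusted p = 4.1e-08), with −0.47 ± 0.07 in M-BKO cells (adjusted p = 2.5e-05). The interaction was 0.39 ± 0.10 with an adjusted p of 0.08, the smallest among the members, so a difference between the genotypes was not shown. The call in WT cells was lost under the median-ratio scaling (−0.42) and under quantile normalization (−0.49). Inside a library, Ube2e1 over Ube2e2 was 6.27 to 6.81 in M-BKO cells after M1, against 3.21 to 3.66 in M-BKO controls, and 6.89 to 9.15 in WT cells after M1, against 3.10 to 3.99 in WT controls. Ube2e3 was 27.2 to 31.3 TPM in M-BKO cells after M1 and 28.6 to 30.5 TPM in M-BKO controls, and 22.6 to 24.8 TPM in WT cells after M1 and 25.4 to 27.8 TPM in WT controls. Its M1 response was −0.01 ± 0.06 in M-BKO cells and −0.15 ± 0.06 in WT cells, and it was positive under the median-ratio scaling (0.46 and 0.30) and quantile normalization (0.34 and 0.19).

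Ube2w (chr1:16540788-16619338, minus strand) had 7.75, 8.07 and 7.08 TPM in M-BKO cells after M1, against 13.6, 11.7 and 11.3 TPM in M-BKO controls. The WT values were 8.36, 6.23 and 6.01 TPM after M1, against 12.6, 10.9 and 14.2 TPM in controls. All M1 libraries were below all controls (log2 fold change −0.61 ± 0.12 in M-BKO cells, limma adjusted p = 0.0002, and −0.79 ± 0.12 in WT cells, adjusted p = 1.7e-05). In M-BKO cells the call was lost without control replicate 1 (−0.53) or without M1 replicate 3 (−0.56), and in both genotypes it was lost under the median-ratio scaling (−0.16 in M-BKO cells and −0.37 in WT cells).

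The E2s that build chains through lysine 63 are Ube2n and its inactive partners Ube2v1 and Ube2v2, which orient the acceptor ubiquitin. Ube2n, the catalytic subunit, had 65.4, 66.1 and 61.6 TPM in M-BKO cells after M1, against 62.1, 57.6 and 59.3 TPM in M-BKO controls, and 66.0, 53.6 and 58.1 TPM in WT cells after M1, against 55.2, 53.3 and 68.8 TPM in WT controls. The groups overlapped in both genotypes, and the log2 fold change was 0.11 ± 0.09 in M-BKO cells (limma adjusted p = 0.26) and 0.01 ± 0.09 in WT cells (adjusted p = 0.95). This held for TPM only. With median-ratio scaling Ube2n was at 0.589 in M-BKO cells, which was called higher, and at 0.465 in WT cells, which was not called.

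Ube2v1 had 201, 208 and 202 TPM in M-BKO cells after M1, against 169, 176 and 181 TPM in M-BKO controls. WT libraries had 202, 207 and 206 TPM after M1, against 180.0, 175 and 162 TPM in controls. M1 libraries were higher without overlap but under the fold limit (log2 fold change 0.21 ± 0.04 in M-BKO cells, limma adjusted p = 0.00033, and 0.25 ± 0.04 in WT cells, adjusted p = 6.9e-05). Ube2v1 was called higher in both genotypes under the median-ratio scaling (0.70 in M-BKO cells and 0.72 in WT cells). Of all 50-base windows in its transcripts, 58.0% also occur in another gene model, for the most part Gm20431, which was not analysed here, so its level carries that uncertainty.

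Ube2v2 (chr16:15550986-15594518, minus strand) had 5.28, 4.95 and 4.29 TPM in M-BKO cells after M1, against 7.42, 6.84 and 6.35 TPM in M-BKO controls. In WT cells it had 4.62, 2.82 and 3.50 TPM after M1, against 6.28, 5.33 and 8.24 TPM in controls. It was lower after M1 without overlap, and called in WT cells alone (−0.71 ± 0.15, limma adjusted p = 0.00037), with −0.43 ± 0.15 in M-BKO cells (adjusted p = 0.013). That call was lost without WT control replicate 3 (−0.56), without WT M1 replicate 2 (−0.58) and under both other scalings (−0.33 and −0.15). Inside a library, Ube2v1 over Ube2v2 was 38.1 to 46.9 in M-BKO cells after M1, against 22.8 to 28.6 in M-BKO controls, and 43.8 to 73.3 in WT cells after M1, against 19.6 to 32.8 in WT controls.

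Of the E2s of ubiquitin-like modifiers, Ube2m, Ube2f, Ube2l6 and Ube2z were not called in either M1 response. Under the median-ratio scaling Ube2m, Ube2f and Ube2z were called higher in both genotypes.

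Ube2m and Ube2f, the E2s of Nedd8, were close to each other in level. Ube2m had 186, 206 and 182 TPM in M-BKO cells after M1, against 136, 145 and 152 TPM in M-BKO controls, and 183, 193 and 183 TPM in WT cells after M1, against 137, 133 and 135 TPM in WT controls. Ube2f had 200.1, 199 and 196 TPM in M-BKO cells after M1, against 149, 150 and 158 TPM in M-BKO controls, and 192, 182 and 189 TPM in WT cells after M1, against 141, 153 and 161 TPM in WT controls. Both were higher after M1 in every library, at 0.40 ± 0.05 for Ube2m and 0.38 ± 0.05 for Ube2f in M-BKO cells (limma adjusted p = 4.4e-06 and 2.4e-06) and 0.46 ± 0.05 and 0.31 ± 0.05 in WT cells (adjusted p = 1.1e-06 and 2.2e-05), under the fold limit in TPM and over it under the median-ratio scaling. Their ratio inside a library was the 1 among 14 tested pairs that did not pass (0.968 to 1.07 in M-BKO cells after M1, against 1.03 to 1.09 in M-BKO controls, and 0.941 to 1.05 in WT cells after M1, against 1.03 to 1.19 in WT controls, two-sided exact permutation p = 0.13; the mean log2 ratio moved by −0.02 in M-BKO cells and −0.15 in WT cells).

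Ube2l6, the most abundant member and the E2 of Isg15, had 398, 407 and 397 TPM in M-BKO cells after M1, against 377, 374 and 378 TPM in M-BKO controls. The WT values were 407, 373 and 375 TPM after M1, against 390.3, 392 and 421 TPM in controls. Its M1 response in TPM was 0.09 ± 0.04 in M-BKO cells (limma adjusted p = 0.055) and −0.06 ± 0.04 in WT cells (adjusted p = 0.19). Ube2l6 was at 0.577 in M-BKO cells and 0.406 in WT cells under the median-ratio scaling, inside the fold limit in both. Isg15, the modifier it carries, had 2976 to 3050 TPM in M-BKO cells after M1, against 700.3 to 709 TPM in M-BKO controls, and 3218 to 3446 TPM in WT cells after M1, against 868 to 962 TPM in WT controls. Uba7, the E1 that charges Ube2l6, had 152 to 162 TPM in M-BKO cells after M1, against 184 to 196 TPM in M-BKO controls, and 161 to 166 TPM in WT cells after M1, against 184 to 196 TPM in WT controls. The log2 fold change of Uba7 was −0.25 in M-BKO cells and −0.23 in WT cells, and turned to 0.24 and 0.23 under the median-ratio scaling.

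Ube2z, an E2 that is charged by the second ubiquitin E1 Uba6 and can also take Fat10, had 167, 157 and 162 TPM in M-BKO cells after M1, against 114, 117 and 117 TPM in M-BKO controls. WT libraries had 163, 162 and 166 TPM after M1, against 123, 130.2 and 129 TPM in controls. M1 libraries were higher without overlap (0.48 ± 0.04 in M-BKO cells, limma adjusted p = 2.2e-08, and 0.36 ± 0.04 in WT cells, adjusted p = 5.6e-07), under the fold limit in TPM and over it under the median-ratio scaling (0.96 and 0.82).

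Among the remaining members, Ube2o (chr11:116537753-116581447, minus strand), a large enzyme that joins E2 and E3 activity in 1 chain, had the largest rise. It had 11.2, 10.1 and 10.97 TPM in M-BKO cells after M1, against 5.35, 4.92 and 4.74 TPM in M-BKO controls. In WT cells it had 10.8, 10.3 and 10.9 TPM after M1, against 4.94, 5.33 and 3.81 TPM in controls. No library overlapped, and the log2 fold change was 0.97 ± 0.09 in M-BKO cells (SE, limma adjusted p = 1.7e-07) and 1.04 ± 0.09 in WT cells (adjusted p = 7.6e-08).

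Ube2j2, an E2 of the endoplasmic reticulum membrane that works in the disposal of misfolded proteins, had 6.73, 6.36 and 5.96 TPM in M-BKO cells after M1, against 5.59, 5.08 and 4.42 TPM in M-BKO controls. The WT values were 5.58, 8.02 and 9.07 TPM after M1, against 3.70, 5.23 and 4.05 TPM in controls. In TPM it was called in WT cells alone (0.67 ± 0.14, limma adjusted p = 0.00051), with 0.29 ± 0.14 in M-BKO cells (adjusted p = 0.072), and the call was lost without WT M1 replicate 3 (0.54). Ube2j2 was called higher in both genotypes under the median-ratio scaling (0.70 in M-BKO cells and 1.07 in WT cells). It was also called in M-BKO cells under quantile normalization (0.84). Its gene (chr4:155943831-155959604, plus strand) contains on the same strand the predicted gene Gm5801_1, which had 83.1 to 84.4 TPM in M-BKO cells after M1 and 60.7 to 67.9 TPM in M-BKO controls, and 75.8 to 83.2 TPM in WT cells after M1 and 55.2 to 60.7 TPM in WT controls, so reads may have been split between them. Ube2j1, its paralog in the same membrane, had an M1 response of 0.11 ± 0.05 in M-BKO cells and 0.00 ± 0.05 in WT cells. Ube2g2, which acts with the same disposal pathway, averaged 82.2 ± 2.26 TPM in M-BKO cells after M1 and 97.9 ± 0.0973 TPM in M-BKO controls, and 78.3 ± 3.42 TPM in WT cells after M1 and 89.98 ± 4.30 TPM in WT controls (SD, n = 3 each), and the sign of its log2 fold change turned under the median-ratio scaling (−0.25 became 0.23 in M-BKO cells, and −0.20 became 0.26 in WT cells).

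Ube2l3, which serves HECT and RBR ligases such as the one that makes linear chains, had 217, 217 and 216 TPM in M-BKO cells after M1, against 259, 257 and 253 TPM in M-BKO controls, and 208, 193 and 206 TPM in WT cells after M1, against 247, 235 and 254 TPM in WT controls. It was lower without overlap in TPM (−0.24 ± 0.04 in M-BKO cells, limma adjusted p = 4.7e-05, and −0.28 ± 0.04 in WT cells, adjusted p = 1.3e-05), under the fold limit, and its sign turned under the median-ratio scaling (0.24 and 0.19). The E2s of lysine 48 chains, Ube2k, Ube2r2 and Ube2g1, had M1 responses between −0.01 and 0.27 in M-BKO cells and between −0.03 and 0.24 in WT cells, and 0 of these 3 were called. Under the median-ratio scaling Ube2r2 was called higher in both genotypes (0.75 in M-BKO cells and 0.70 in WT cells) and Ube2g1 in M-BKO cells (0.65). Ube2q2, taken up again below, had a log2 fold change of 0.58 ± 0.09 in M-BKO cells (limma adjusted p = 2e-05), just inside the fold limit, which is 0.58 on this scale to 2 decimals, and of 0.29 ± 0.09 in WT cells (adjusted p = 0.0067). It was called higher in both genotypes under the median-ratio scaling (1.05 in M-BKO cells and 0.73 in WT cells) and quantile normalization (0.95 and 0.65). In M-BKO cells it was also called with a pseudocount of 0.1 (0.60) and without M-BKO M1 replicate 3 (0.625).

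Related members were also compared by their ratio inside each library, in 14 pairs of the same subfamily or task. For each pair the M1 and control labels were exchanged within genotypes in all 400 ways (two-sided exact permutation test), and 13 of 14 pairs passed an adjusted p of 0.05, 12 of them at 0.005, the smallest p that the test can give (0.0058 after adjustment over the 14). The largest shifts of the log2 ratio, as the mean of both genotypes, were −5.29 for Ube2c over Ube2s, 1.08 for Ube2e1 over Ube2e2, 0.92 for Ube2v1 over Ube2v2, −0.91 for Ube2d1 over Ube2d3 and −0.67 for Ube2q1 over Ube2q2. In these 5 pairs the M1 and control libraries did not overlap in either genotype. The test and its 14 pairs were chosen after the values had been seen, and the adjustment does not account for that choice. Most genes changed in these libraries, and the pairs were not compared with pairs of other genes.

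**Figure D4:**
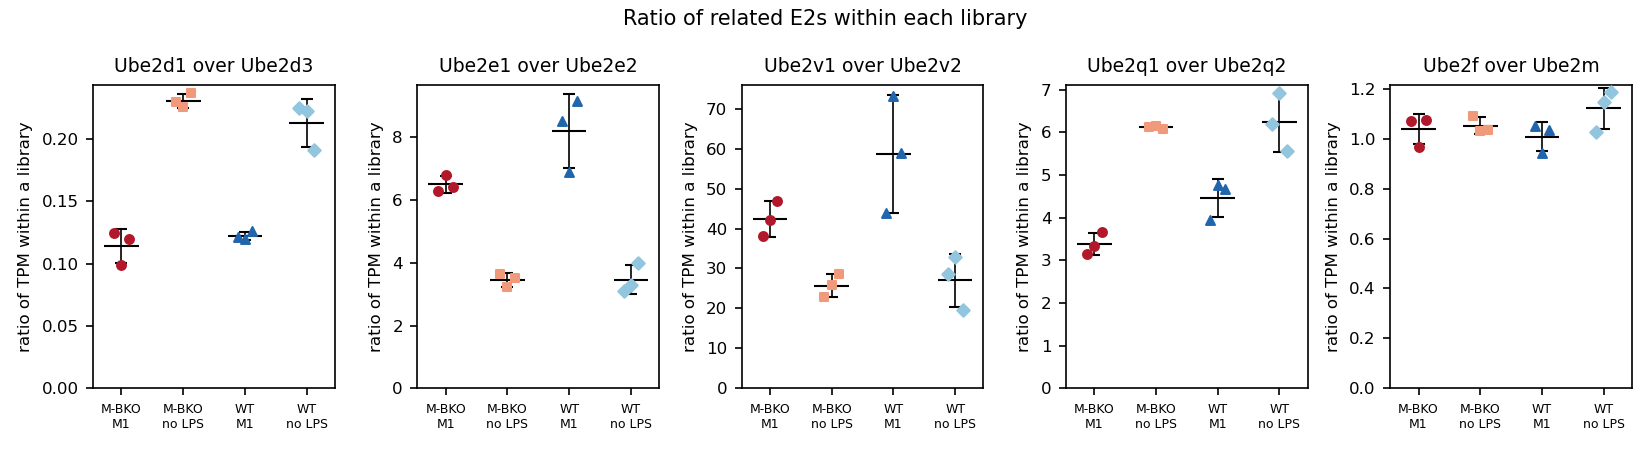
Ratio of the TPM of a pair of related E2s within each library (points), with the group mean (line) and SD (bars, n = 3), groups from left to right M-BKO after M1, M-BKO without LPS, WT after M1 and WT without LPS. All panels but the last separate M1 libraries from controls without overlap, and Ube2f over Ube2m, between 0.941 and 1.19 in all libraries, does not.

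The second question was whether loss of Bmal1 changed E2 levels in M1-activated cells. Here a call needed an adjusted p under 0.05, with no fold limit. After M1, 4 members were called higher in M-BKO cells than in WT cells (Ube2q2, Ube2e2, Ube2e3 and Ube2j1) and 0 lower, against 5.87% of all genes called higher and 2.45% lower (635 and 265 genes, and 427 and 476 genes under the median-ratio scaling, which kept all 4 members). At an unadjusted p under 0.05, 9 members were higher and 0 lower, and 24.8% of all genes passed in either direction. All 4 differences were under 1.5-fold. The study itself names Ube2q2 and Ube2e3. The median difference over the members was 0.11 and over all genes 0.03 on the log2 scale.

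Ube2q2 (chr9:55149369-55207529, plus strand) had 30.8, 29.5 and 27.2 TPM in M-BKO cells after M1, against 24.1, 20.3 and 21.6 TPM in WT cells after M1. Without LPS it had 19.1, 19.4 and 19.1 TPM in M-BKO cells, against 17.3, 15.8 and 20.7 TPM in WT cells. The genotypes did not overlap after M1 and overlapped without LPS. The difference after M1 was 0.39 ± 0.09 (SE, limma adjusted p = 0.013, range over the alternatives 0.0012 to 0.062), and without LPS it was 0.10 ± 0.09 (adjusted p = 0.53). The interaction of 0.29 ± 0.12 did not pass (adjusted p = 0.28). The call was lost without M-BKO M1 replicate 1 (0.36), M-BKO M1 replicate 2 (0.39), WT M1 replicate 2 (0.34) or WT M1 replicate 3 (0.38). Of 50-base windows in its transcripts, 16.4% are shared with another gene model, for the most part Gm4895.

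Ube2e3 (chr2:78869047-78920583, plus strand) had 29.4, 31.3 and 27.2 TPM in M-BKO cells after M1, against 24.8, 22.6 and 23.7 TPM in WT cells after M1. Without LPS it had 30.5, 29.5 and 28.6 TPM in M-BKO cells, against 25.4, 25.8 and 27.8 TPM in WT cells. All M-BKO libraries were above the WT libraries of the same treatment. The difference was 0.30 ± 0.06 after M1 (SE, limma adjusted p = 0.0086, range over the alternatives 0.0028 to 0.045) and 0.16 ± 0.06 without LPS (adjusted p = 0.15). It was the 1 member of the 4 whose call held when any single library was left out.

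Ube2j1 (chr4:33031425-33052364, plus strand) had 45.4, 46.9 and 44.7 TPM in M-BKO cells after M1, against 38.3, 38.1 and 41.1 TPM in WT cells after M1, and 43.6, 41.1 and 42.4 TPM in M-BKO controls, against 38.6, 38.6 and 40.2 TPM in WT controls. The genotypes did not overlap under either treatment. The difference was 0.22 ± 0.05 after M1 (SE, limma adjusted p = 0.011, lost without WT M1 replicate 2 at 0.20) and 0.11 ± 0.05 without LPS (adjusted p = 0.19). Ube2e2, whose library values are given above, differed by 0.31 ± 0.07 after M1 (adjusted p = 0.017) and −0.08 ± 0.07 without LPS (adjusted p = 0.55). Its call was lost under quantile normalization (0.25), without M-BKO M1 replicate 1 (0.31) or 3 (0.28), and without WT M1 replicate 3 (0.24).

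**Figure D5:**
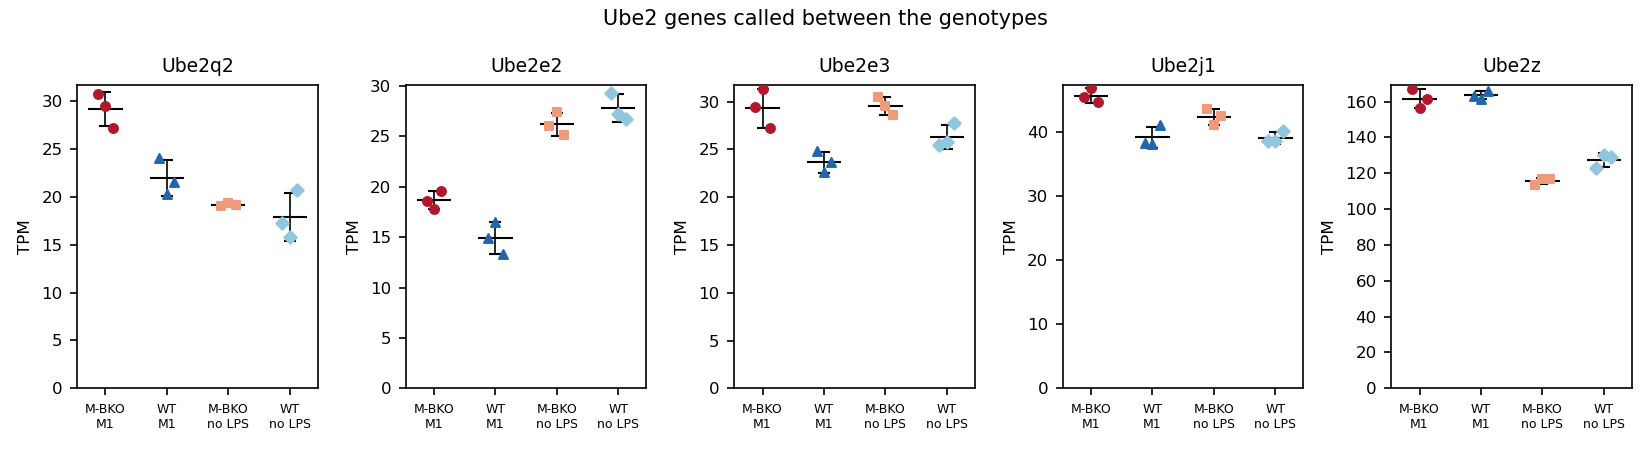
TPM of the 5 Ube2 genes called between the genotypes, 1 point per library, with the group mean (line) and SD (bars, n = 3), groups from left to right M-BKO after M1, WT after M1, M-BKO without LPS and WT without LPS. The M-BKO and WT libraries after M1 do not overlap for Ube2q2, Ube2e2, Ube2e3 and Ube2j1. Those without LPS do not overlap for Ube2z, Ube2e3 and Ube2j1, of which Ube2z alone was called there.

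Without LPS, 0 members were called higher in M-BKO cells and 1, Ube2z, was called lower, against 4.56% of all genes called higher and 1.12% lower (494 and 121 genes, and 142 and 198 genes under the median-ratio scaling, which called Ube2l6 lower as well). At an unadjusted p under 0.05, 7 members were higher and 2 lower, and 21.0% of all genes passed in either direction. Ube2z had 114, 117 and 117 TPM in M-BKO controls, against 123, 130.2 and 129 TPM in WT controls. These did not overlap, but the difference was small (−0.14 ± 0.04, SE, limma adjusted p = 0.049, range over the alternatives 0.011 to 0.18). The call was lost when any of the 3 M-BKO controls, or WT control replicate 2 or 3, was left out, with differences of −0.14 to −0.12, and when any of the WT M1 libraries or M-BKO M1 replicate 1 or 3 was left out of the shared estimate of spread. After M1 it differed by −0.02 ± 0.04 (adjusted p = 0.82).

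The interaction, the M1 response in M-BKO cells minus that in WT cells, called 0 members by limma, against 0.536% of all genes higher and 0.841% lower. At an unadjusted p under 0.05 there were 4 members higher and 1 lower, with 15.3% of all genes passing in either direction, and over the 31 members the value lay between −0.38 and 0.39. No member was thus shown to respond to M1 in a different way in M-BKO cells, and values for Ube2e2 and Ube2q2 are given above. Without WT M1 replicate 2, Ube2e2 was called (0.46, adjusted p = 0.046).

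The rest of the conjugation pathway was set beside the E2s. Its counts are read beside those of all genes, of which 12.3% were called higher and 42.3% lower in M-BKO cells and 12.9% higher and 41.0% lower in WT cells. For counts under the median-ratio scaling, these shares were 22.2% higher and 22.3% lower in M-BKO cells and 22.6% higher and 21.5% lower in WT cells. Of 10 E1 enzymes and subunits, 0 were called higher and 3 lower after M1 in M-BKO cells, and 0 higher and 4 lower in WT cells. These counts were, under the median-ratio scaling, 2 higher and 1 lower in M-BKO cells and 0 higher and 1 lower in WT cells. The lower ones were led by Atg7, the E1-like enzyme of autophagy (−1.43 ± 0.06 in M-BKO cells, limma adjusted p = 1.6e-11, and −1.33 ± 0.06 in WT cells, adjusted p = 4e-11), and Sae1, a subunit of the Sumo E1 (−0.91 ± 0.05, adjusted p = 4.8e-10, and −0.90 ± 0.05, adjusted p = 6.1e-10). Under the median-ratio scaling Atg7 kept its call (−0.97 and −0.89) and Sae1 lost it (−0.43 and −0.44). Uba6, which charges Ube2z, was the 1 E1 called higher in M-BKO cells than in WT cells after M1 (0.39 ± 0.11, adjusted p = 0.045). It had 10.3, 10.2 and 9.96 TPM in M-BKO cells after M1, against 8.68, 6.89 and 7.14 TPM in WT cells after M1. This call held in 8 of 22 alternatives (adjusted p 0.0065 to 0.16), and was lost under quantile normalization, with the replicate block, with Lyz2 left out of the TPM total and when any of the 6 M-BKO libraries or WT M1 replicate 2 or 3 was left out.

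Of 7 E2s and E2-like genes with other names, 0 were called higher and 3 lower in each genotype, led by Ufc1, the E2 of Ufm1 (−0.77 ± 0.05 in M-BKO cells, limma adjusted p = 5.2e-09, and −0.88 ± 0.05 in WT cells, adjusted p = 1.3e-09), and Aktip (−0.76 ± 0.07, adjusted p = 2.4e-07, and −0.83 ± 0.07, adjusted p = 9.4e-08). Both lost their calls under the median-ratio scaling (−0.29 and −0.42 for Ufc1, −0.30 and −0.39 for Aktip), under which 1 of the 7 was called higher and 1 lower in each genotype. Of 13 genes of ubiquitin and ubiquitin-like modifiers, 2 were called higher and 3 lower in M-BKO cells, and 3 higher and 3 lower in WT cells. After median-ratio scaling 3 were called higher and 0 lower in each genotype. Nedd8, carried by Ube2m and Ube2f, was called lower (−0.75 ± 0.05 in M-BKO cells, adjusted p = 1.3e-09, and −0.65 ± 0.05 in WT cells, adjusted p = 6.7e-09), where the 2 E2s were higher; under the median-ratio scaling Nedd8 was at −0.26 and −0.18. Isg15 rose by 2.09 ± 0.04 in M-BKO cells and 1.86 ± 0.04 in WT cells, and was lower in M-BKO cells than in WT cells without LPS (−0.38 ± 0.04, adjusted p = 6.2e-05). Its difference after M1 (−0.14 ± 0.04, adjusted p = 0.037) was called in 12 of 22 alternatives (adjusted p 0.0038 to 0.15), and was lost with no variance trend, with no filter on low values and when any of the 6 M-BKO libraries or WT M1 replicate 2 or 3 was left out.

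Of 31 E3s and partners, 4 were called higher and 8 lower after M1 in M-BKO cells, and 4 higher and 7 lower in WT cells. With median-ratio scaling 7 were called higher and 3 lower in each genotype, against 22.2% and 22.3% of all genes in M-BKO cells and 22.6% and 21.5% in WT cells. Usp18, the protease that removes Isg15, had the smallest adjusted p among the higher ones (2.32 ± 0.04 in M-BKO cells, limma adjusted p = 7.1e-15, and 2.24 ± 0.04 in WT cells, adjusted p = 1.1e-14), and Rnf5, a RING E3 of the endoplasmic reticulum, and Sharpin, a subunit of the complex that makes linear chains, were called lower (Rnf5 −1.17 ± 0.05 in M-BKO cells and −1.02 ± 0.05 in WT cells; Sharpin −0.99 ± 0.04 and −0.85 ± 0.04). Under the median-ratio scaling Sharpin lost its call in both genotypes (−0.51 in M-BKO cells and −0.39 in WT cells), and Rnf5 lost it in WT cells (−0.56) and kept it in M-BKO cells (−0.69). The partners of Sharpin in its complex went both ways in TPM. Rnf31 averaged 75.1 TPM after M1 and 55.8 TPM in controls in M-BKO cells, and 81.2 and 53.5 TPM in WT cells. Rbck1 averaged 51.8 TPM after M1 and 76.9 TPM in controls in M-BKO cells, and 54.8 and 71.3 TPM in WT cells. Between the genotypes, Usp18 was lower in M-BKO cells after M1 (−0.22 ± 0.04, adjusted p = 0.0089) and without LPS (−0.31 ± 0.04, adjusted p = 0.0012).

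An E-box, CACGTG, the letters that Bmal1 with its partner can bind, was searched in the same promoter windows on both strands. It was in 7.15% of the 32851 windows and in 3 of the 41 windows of members. Among the 24 tested members with a window, it was in those of Ube2b and Ube2q1, which were not called between the genotypes. The windows of Ube2q2, Ube2e2, Ube2j1 and Ube2z held no match, and Ube2e3 had no window. A match in so short a window is a description and says nothing of binding.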

How the data were processed

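RNA of 12 libraries, 3 per group, had been sequenced from stranded mRNA libraries. After trimming, the authors aligned reads to mm10 with CLC Genomics Workbench, allowing 2 mismatches and at most 5 hits per read, and deposited the level of each gene in TPM, where each library has the same sum. The gene annotation, the number of reads and any use of strand in counting were not given in the sources used here, so depth is unknown and precision was taken from the spread between libraries. Deposited fold changes and p-values of the authors' own comparisons were not used. Reads that fit several genes may be shared among them, which bears on members with processed pseudogenes.

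A gene was tested if 3 or more libraries had 1 TPM or more (10822 of 23440), and the test was run on log2(TPM + 1), a pseudocount of 1, with limma 3.58.1 in R 4.3.3. The fit had 4 group means, 8 residual degrees of freedom and a variance trend, with Benjamini-Hochberg adjustment over all genes in each of 5 comparisons. M1 responses needed an adjusted p under 0.05 and a fold over 1.5, the other comparisons the adjusted p alone, after the thresholds of the study. Ratios of 2 members in a library were tested by permutation, and this test, its 14 pairs and leaving out each library for it were chosen after seeing the data.

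The members, the gene lists and the rule for named genes were chosen with earlier results of these data known. The rule gives library values for up to 6 called members per direction in each M1 response that reach 5 TPM in the group where they are higher, members called between genotypes (up to 8 per direction), Ube2q2, Ube2e3, the 5 most abundant members, the E2s of ubiquitin-like modifiers and of lysine 63 chains, and up to 2 called genes per pathway list and direction. A tested member and a gene of the modifier list that this rule takes are in the counts and sums but are not reported here. Ube2t fell outside it by level, and Ube2a, Ube2b, Ube2d2a, Ube2e1, Ube2g1, Ube2g2, Ube2r2, Ube2j1 in the M1 responses, Uba7, Rnf31, Rbck1, Gm5801_1 and the markers of other cells were named after their values were seen. Sequences are RefSeq promoters of GRCm38.p6, matched by symbol. Alternatives changed the pseudocount, the filter, the scaling, the fold limit, the model of the variance and which libraries were fitted.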

Additional observations from a re-analysis of the deposited data

How the results depend on the processing

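Counts of members called moved most with the scaling and the fold limit. In the M1 response of M-BKO cells, 2 members higher and 4 lower became 13 and 2 under median-ratio scaling, 6 higher under quantile normalization, 2 lower with a pseudocount of 5, and 11 and 11 without the fold limit. In WT cells, 3 higher and 6 lower became 11 and 2 under median-ratio scaling, 3 lower under quantile normalization, and 11 and 12 without the fold limit. With a pseudocount of 5, Ube2j2, Ube2v2 and Ube2w lost their calls in WT cells. The shares of all genes called under quantile normalization and with a pseudocount of 5 are not given here. Member counts under those settings therefore cannot be set against the whole table. In M-BKO against WT after M1, the 4 higher members became 0 with a 1.5-fold limit. Without LPS, the 1 lower member became 2 under median-ratio scaling and 0 with a pseudocount of 0.1, with no variance trend, with only the groups compared, with a 1.5-fold limit and with the replicate block. Leaving out 1 library gave 2 to 6 members higher and 0 to 1 lower after M1, 0 to 1 higher and 0 to 1 lower without LPS, and 0 to 1 higher in the interaction. The counts of all genes moved widely in these fits as well. They were 300 to 1267 higher and 146 to 528 lower after M1, and 207 to 732 higher and 71 to 144 lower without LPS. For the interaction they were 27 to 78 higher and 29 to 133 lower. The fit with the replicate number as a block changed no other member call. The numbers did not pair the libraries (correlations of same-numbered libraries −0.249 to 0.258, 5 of 12 closest to their own number).

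Some M1 responses changed sign. Under median-ratio scaling the M1 response became 0.46 for Ube2e3 and 0.24 for Ube2l3 in M-BKO cells, and 0.31 for Ube2d3, 0.30 for Ube2e3, 0.19 for Ube2l3 and 0.41 for Ube2l6 in WT cells, and it also turned positive for Ube2b, Ube2d2a, Ube2g2, Ube2h, Ube2k and Ube2q1 in both genotypes. Under quantile normalization it became 0.34 for Ube2e3 and 0.17 for Ube2v2 in M-BKO cells, and 0.19 for Ube2e3 in WT cells. With Lyz2 left out of the TPM total, Ube2n in WT cells was at −0.0199. Leaving out 1 library gave −0.0042 to 0.11 for Ube2d3 and −0.0596 to 0.0376 for Ube2e3 in M-BKO cells, and −0.0735 to 0.12 for Ube2n in WT cells. The cause was not tested. The 14 ratios kept their direction and their side of 0.05 with any 1 library left out. TPM keep no depth, so what the number of reads limits is unknown, and Ube2t, Ube2v2, Ube2j2 and Ube2w, among the lowest members, lost a call with a pseudocount of 5 in at least 1 genotype.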
